A study of Homo sapiens with 20 samples.

Results

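Chromatin binding of HIF1A was examined at 8 genes that set how pyruvate and oxygen are used by mitochondria: the pyruvate dehydrogenase kinases PDK1, PDK2, PDK3 and PDK4, the NDUFA4 relative NDUFA4L2, the cytochrome c oxidase subunit 4 isoforms COX4I1 and COX4I2, and the mitochondrial protease LONP1. The 8 are among 20162 protein-coding genes of the GENCODE annotation of GRCh37. A peak was assigned to a gene when its centre lay between 10 kb upstream of the gene start and 10 kb past the gene end, and 18 of the 26484 peaks in 8 lists met this rule.

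HIF1A ChIP-seq, the sequencing of DNA recovered with an antibody against HIF1A, was carried out in HCT116 and RKO cells from colon carcinomas, and in A549 (adenocarcinoma) and H460 (large cell carcinoma) cells from the lung. Each line was kept in normoxia or in hypoxia at 1% oxygen for 24 h, with 2 replicates for each group, and 1 input library of genomic DNA per line, labelled as normoxic, served both conditions. No genetic change is named for any group, and media and sonication were not the same in all lines. The replicates were merged before peak calling, so each line and condition is a single list, and the 4 lines are the only replicates. Merged libraries held from 41.2 M to 81.5 M tags, where 1 M is 1000000, and the lists held from 287 peaks in HCT116 normoxia to 9171 peaks in RKO hypoxia.

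Pyruvate dehydrogenase kinases phosphorylate and inhibit the pyruvate dehydrogenase complex, which feeds pyruvate carbon into the citric acid cycle. COX4I2 is an isoform that can replace COX4I1 in cytochrome c oxidase, LONP1 is a matrix protease known to degrade COX4I1, and NDUFA4L2 is a mitochondrial protein known to lower oxygen use in hypoxic cells. HIF1A pairs with ARNT and binds the hypoxia response element, or HRE, whose core is ACGTG or GCGTG.

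Sequences are shown here for the sites that the values below turn on. Each was read from GRCh37 on the strand of the gene, 5′ to 3′, and capitals mark HRE cores of either strand, so that CACGT and CACGC are cores of the opposite strand and CACGTG holds a core on both. The first set lies under peaks, and was chosen because it holds the cores nearest to the peak centres. The exception is the first NDUFA4L2 3′ UTR site, which holds more cores of that peak than the second.
PDK1 start, chr2:173420793-173420822, plus strand: ctgcccgcCACGTccctCACGTaccactcg
PDK3 start, chrX:24483330-24483359, plus strand: cgcgcgccgcgtACGTGcagcaaccgactc
LONP1 start, chr19:5720196-5720225, minus strand: cgaggCACGCgccgggcgtCACGTGcgttt
LONP1 upstream, chr19:5720666-5720695, minus strand: gcacaatccgagtACGTGcaggctgaagcc
LONP1 past the end, chr19:5687297-5687326, minus strand: gcgacgtcagttgCACGTagctcacaaagt
NDUFA4L2 3′ UTR, first site, chr12:57629002-57629031, minus strand: ggctACGTGttgaGCGTGgcctACGTGagc
NDUFA4L2 3′ UTR, second site, chr12:57628945-57628974, minus strand: caagcgACGTGgcgggctcCACGTtagccc
NDUFA4L2 upstream, chr12:57634361-57634390, minus strand: gacagtgtgacgCACGTGcgcgcgcgagtg

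The second set lies just upstream of the starts of genes that had no peak in any list, and was chosen because it holds HRE cores too.
PDK2 upstream of the start, chr17:48172574-48172603, plus strand: cccgggggaagcCACGTGccggggcggaag
COX4I2 upstream of the start, first site, chr20:30225595-30225624, plus strand: gctgtgcgctccCACGCcctgccgaagcag
COX4I2 upstream of the start, second site, chr20:30225621-30225650, plus strand: gcaggacgttccCACGCtggggcggccccg

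Peaks at the 8 genes were called only in the hypoxia lists. In hypoxia, 3 of 8 genes had a peak in HCT116 (37.5%), against 19.9% of all protein-coding genes. H460 had 4 of 8 (50.0%) against 18.4%, A549 had 3 of 8 (37.5%) against 21.5%, and RKO had 2 of 8 (25.0%) against 28.3%. The share in RKO was thus below that of all protein-coding genes and the other 3 were above it. Each share rests on 2 to 4 genes, so 1 gene more or less moves it far. These differences were not tested, and the 8 genes were chosen with earlier results of these data known. Over the 4 hypoxia lists, 4 of 8 genes had a peak in at least 1, against 51.8% of all protein-coding genes, and 3 of 8 in at least 2, against 23.3%.

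In normoxia 0 of 8 genes had a peak in any line. The background was low in the same lists, at 6.93% of protein-coding genes for RKO, 3.81% for H460, 2.76% for A549 and 1.29% for HCT116, so 0 of 8 is close to the background of each list. Hypoxia exceeded normoxia by 3 ± 0.816 genes (SD, n = 4 lines), and did so in 4 of 4 lines. An exact two-sided permutation test that flips the sign of each line gave p = 0.125, which is the lowest p that 4 lines can reach. With 0 genes in every normoxia list no line could go the other way, so the test does not set the 8 genes apart. The share of all protein-coding genes also rose in every line, from 1.29% to 19.9% in HCT116 and from 6.93% to 28.3% in RKO. In A549 it rose from 2.76% to 21.5% and in H460 from 3.81% to 18.4%. PDK1 and LONP1 had a peak in all 4 hypoxia lists, which held for 3.26% of protein-coding genes. PDK2, PDK4, COX4I1 and COX4I2 had none in any list.

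**Figure D1:**
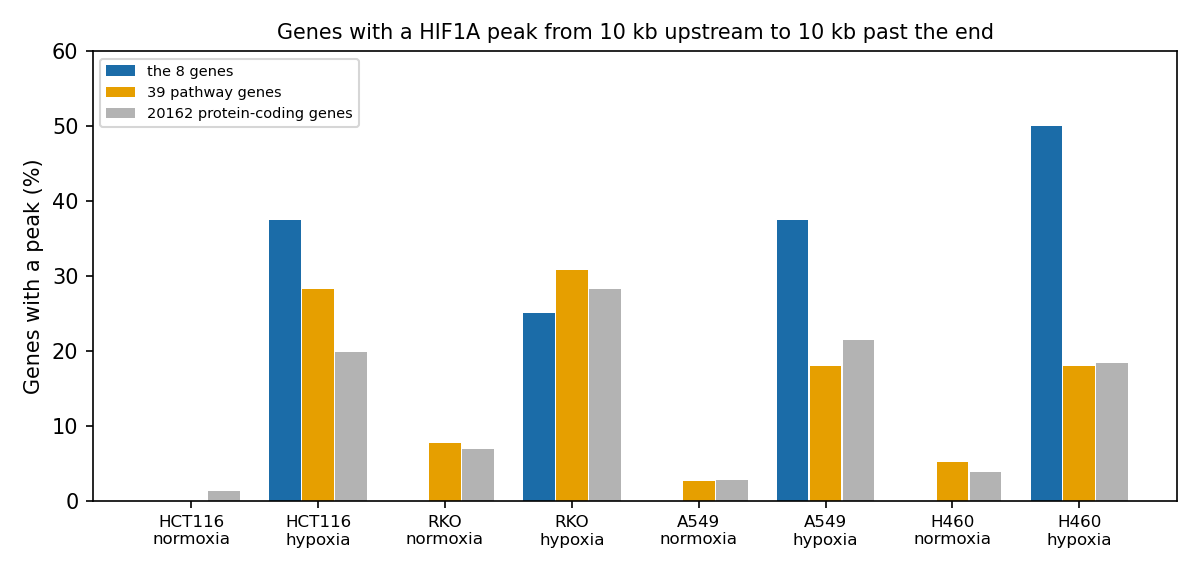
Percentage of genes with at least 1 HIF1A peak from 10 kb upstream to 10 kb past the end, for the 8 genes, 39 other genes of the same pathways and all 20162 protein-coding genes, in each of the 8 lists (1 merged list per bar, no replicates). The blue bars are at 0 in normoxia and between 25.0% and 50.0% in hypoxia, and the RKO blue bar is lower than the grey one.

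Among the kinases, PDK1 carried the strongest HIF1A signal in every hypoxic line. PDK1 (chr2:173420101-173473397, plus strand) is the kinase best known as a HIF1A target. The normalized tag count, the number of tags in a peak per 10 M tags of the library, was highest in H460 at 110.4 (95% Poisson interval 101.3 to 120.1, from 546 tags), followed by A549 at 83.5 (75.4 to 92.3, 389 tags), HCT116 at 69.4 (63.8 to 75.4, 566 tags) and RKO at 39.9 (35.3 to 45.0, 267 tags). These intervals, and the others given below, cover counting error only. The intervals of neighbouring lines in this order did not overlap, though those of A549 and HCT116 came within rounding of each other.

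The PDK1 peak was near the top of each list. Its rank was 4 of 3877 peaks for H460, 6 of 3996 for HCT116, 11 of 9171 for RKO and 13 of 5408 for A549. Its fold over input ran from 30.1 in RKO to 162.2 in H460, and its fold over the surrounding 10000 bp from 45.0 in RKO to 80.2 in A549. Among the 232 regions called in all 4 hypoxia lists, PDK1 was number 2 for H460, number 6 for HCT116 and number 10 for both A549 and RKO.

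The PDK1 peak centres lay within 18 bp of each other. They were 28 bp upstream of the start of the MANE transcript (the reference transcript of the gene) for HCT116, 30 bp for RKO, 20 bp for H460 and 12 bp for A549. The position is in the 5′ UTR of other PDK1 transcripts and within the record of the antisense gene PDK1-AS1. No other protein-coding gene window took this peak.

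**Figure D2:**
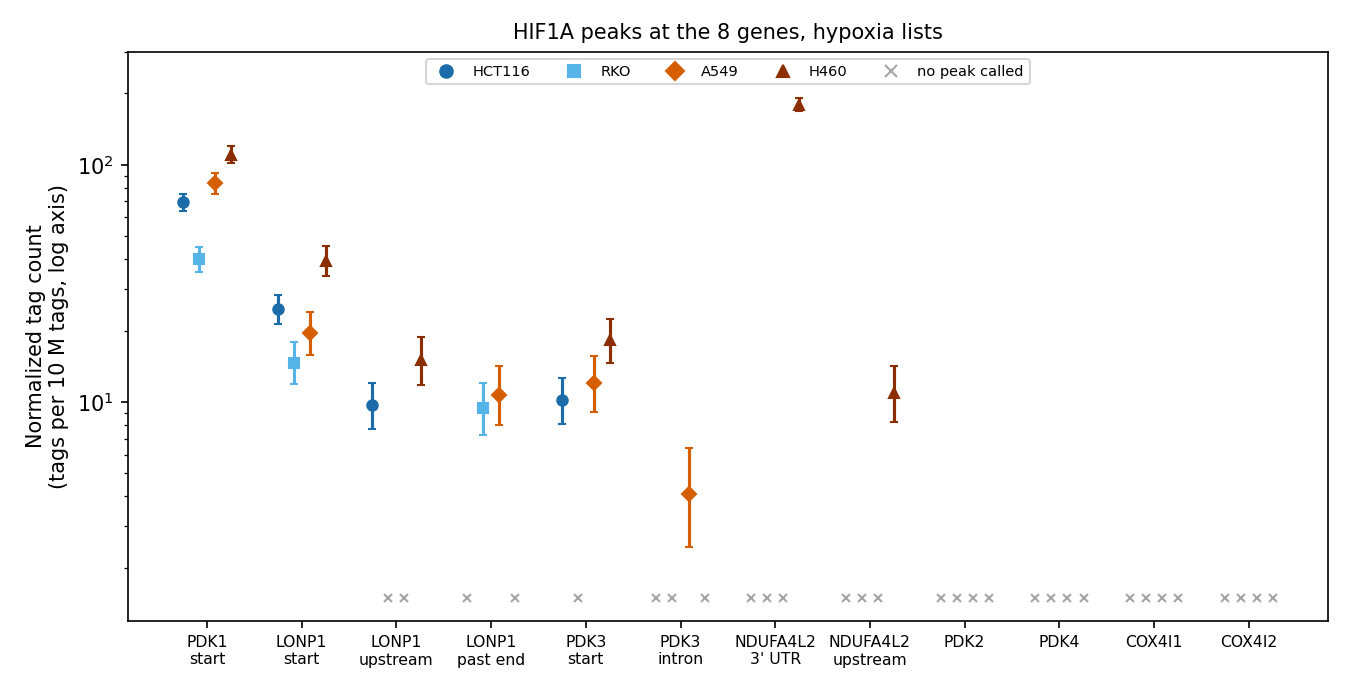
Normalized tag count (tags per 10 M tags, log axis) of every hypoxia peak at the 8 genes, by position and line, with 95% Poisson intervals of the tags, and grey crosses where no peak was called. PDK1 lies between 39.9 and 110.4 in the 4 lines, the NDUFA4L2 3′ UTR peak stands at 179.3 in H460 alone, and the 4 genes on the right have no peak.

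PDK3, the kinase isoform encoded on the X chromosome (chrX:24483361-24568583, plus strand), was bound at its start in 3 of 4 lines at a much lower level. H460 had a normalized tag count of 18.2 (14.6 to 22.4, 90 tags), A549 one of 12.0 (9.08 to 15.6, 56 tags) and HCT116 one of 10.2 (8.11 to 12.6, 83 tags). The intervals of HCT116 and A549 overlapped, as did those of A549 and H460. In RKO no peak was called, and the nearest RKO hypoxia peak was 495 kb from the gene. The weakest peak of the RKO list, at 1.94, was the lowest of the hypoxia lists. The RKO median over the 232 regions called in all 4 hypoxia lists was also the lowest, at 9.80. Why no peak was called in RKO was not tested.

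Within a list, PDK1 exceeded PDK3 by a similar factor in each line where both were called. The ratio of tags was 6.95 for A549 (5.24 to 9.37), 6.82 for HCT116 (5.41 to 8.69) and 6.07 for H460 (4.85 to 7.67), so the 3 intervals overlapped. The PDK3 peak centres lay 54 bp upstream of the MANE start in HCT116, 21 bp in A549 and 37 bp in H460.

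A549 alone had a second PDK3 peak, in an intron 33240 bp past the MANE start, with a normalized tag count of 4.08 (2.46 to 6.37, 19 tags). It was the weakest of the 18 peaks and the only one with no HRE core in the 200 bp at its centre. Its sequence from the first to the last deposited position is shown as the contrast to the core-bearing sites.
PDK3 intron, chrX:24516573-24516713, plus strand: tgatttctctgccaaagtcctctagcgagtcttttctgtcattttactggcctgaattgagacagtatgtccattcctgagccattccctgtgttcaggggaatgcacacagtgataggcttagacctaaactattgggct

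PDK2 and PDK4, the kinase isoforms known for control by nutrients and fasting, had no peak within 10 kb in any list. The nearest hypoxia peak to PDK2 was 17.7 kb away in A549 (normalized tag count 7.30) and 36.9 kb in HCT116 (4.91). The nearest to PDK4 was 13.6 kb away in RKO (2.69), and RKO normoxia had a peak at 12.4 kb (3.33). The PDK4 distances in RKO fall just outside the 10 kb limit, and those peaks are weak.

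LONP1 (chr19:5691845-5720583, minus strand) was the other gene with a peak in all 4 hypoxic lines. At its start the normalized tag count was again highest in H460, at 39.4 (34.1 to 45.4, 195 tags), followed by HCT116 at 24.7 (21.4 to 28.3, 201 tags), A549 at 19.5 (15.7 to 24.0, 91 tags) and RKO at 14.6 (11.9 to 17.9, 98 tags). The H460 interval lay above the other 3. The HCT116 and A549 intervals overlapped, and so did those of A549 and RKO.

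LONP1 ranked lower in its lists than PDK1, at 60 of 3996 peaks for HCT116, 89 of 9171 for RKO, 138 of 3877 for H460 and 367 of 5408 for A549. The ratio of LONP1 to PDK1 tags was 0.367 for RKO (0.288 to 0.464), 0.357 for H460 (0.302 to 0.421), 0.355 for HCT116 (0.301 to 0.418) and 0.234 for A549 (0.184 to 0.295). The A549 ratio was the lowest, and its interval lay below those of HCT116 and H460 but overlapped that of RKO.

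The LONP1 start peaks were centred between 49 bp and 62 bp upstream of the MANE start, with a spread of 13 bp. At these centres the annotation gives the LONP1 gene but no exon, and the peak also fell in the window of CATSPERD, a neighbouring gene for a sperm calcium channel subunit. A second region, 518 bp upstream of the LONP1 MANE start in HCT116 and 527 bp in H460, lay in the 5′ UTR of CATSPERD. It was 27 bp and 36 bp from the start of that gene record. Its normalized tag count was 15.0 for H460 (11.7 to 18.8) and 9.69 for HCT116 (7.67 to 12.1).

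Another region within the LONP1 window was called in RKO at 9.42 (7.24 to 12.0) and in A549 at 10.7 (7.97 to 14.2). It lay 4545 bp and 4530 bp past the LONP1 end, in a coding exon of HSD11B1L and inside the gene record of RPL36, and the windows of 4 protein-coding genes took it. The side regions were thus split by line, with the upstream one called in HCT116 and H460 and the one past the end in RKO and A549.

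**Figure D3:**
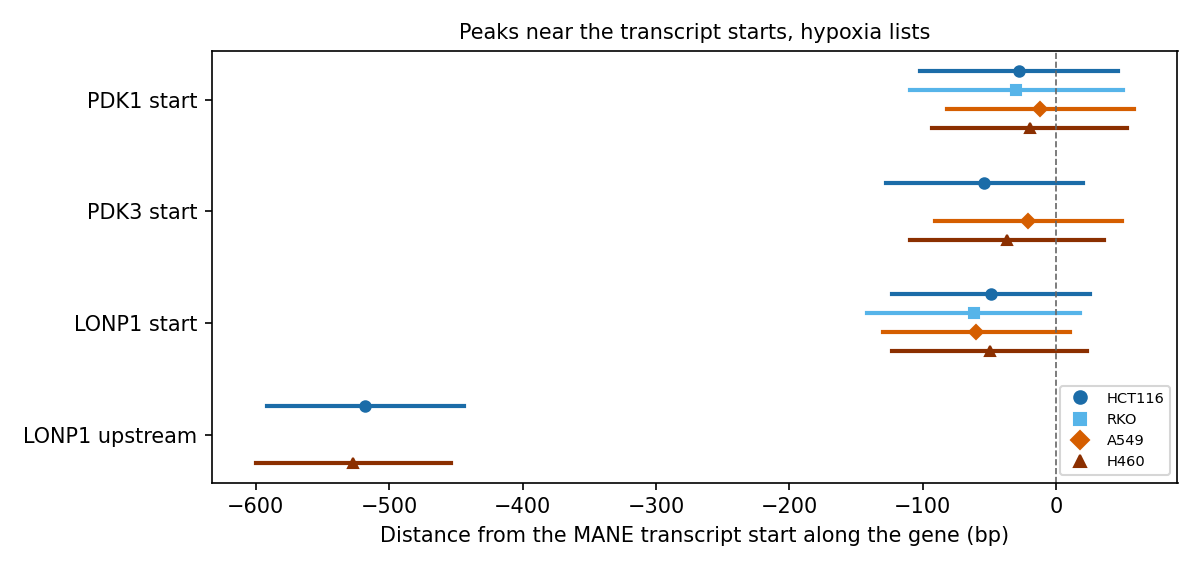
Peak centres (symbols) and widths (lines) in bp from the MANE transcript start along the gene, for the 4 regions at or upstream of a start, coloured by line, in the hypoxia lists. Start peaks of PDK1, PDK3 and LONP1 are centred from 12 bp to 62 bp upstream, and the LONP1 upstream peaks from 518 bp to 527 bp upstream.

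NDUFA4L2 had peaks in H460 alone, and there it held the strongest peak of the list. The normalized tag count was 179.3 (167.7 to 191.6, 887 tags), rank 1 of 3877, and 1.62 times the PDK1 tags of the same list (1.46 to 1.81). Its fold over input was 88.2, with 6 scaled input tags, against 2 at PDK1.

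This peak was not at the start of NDUFA4L2 (chr12:57628686-57634498, minus strand). Its centre lay 1906 bp past the MANE start, in the 3′ UTR, and the windows of NXPH4, SHMT2 and STAC3 took it too, so the list does not assign it to one gene. A second H460 peak lay 3485 bp upstream of the MANE start and 126 bp inside the longest gene record, with a normalized tag count of 10.9 (8.20 to 14.2, 54 tags). The windows of SHMT2, STAC3 and ENSG00000258830 also took this second peak. In hypoxia the nearest peak to NDUFA4L2 was 107 kb away for RKO, 108 kb for A549 and 190 kb for HCT116.

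COX4I1 and COX4I2 had no peak within 10 kb in any list. The nearest peak to COX4I1 was 30.9 kb away in A549 hypoxia, at a normalized tag count of 4.29. Near COX4I2, peaks closest to the start of ID1, a gene for an inhibitor of helix-loop-helix factors, lay 29.4 kb away in HCT116 hypoxia (10.7), 29.4 kb in A549 hypoxia (32.4) and 27.2 kb in H460 hypoxia (15.4). RKO hypoxia had a weaker peak closer to COX4I2, at 19.3 kb (2.84). A549 normoxia had a peak at 30.4 kb (30.6), which did not overlap the A549 hypoxia peak nearest to COX4I2. A549 hypoxia peaks further from COX4I2 were not compared with it.

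**Figure D4:**
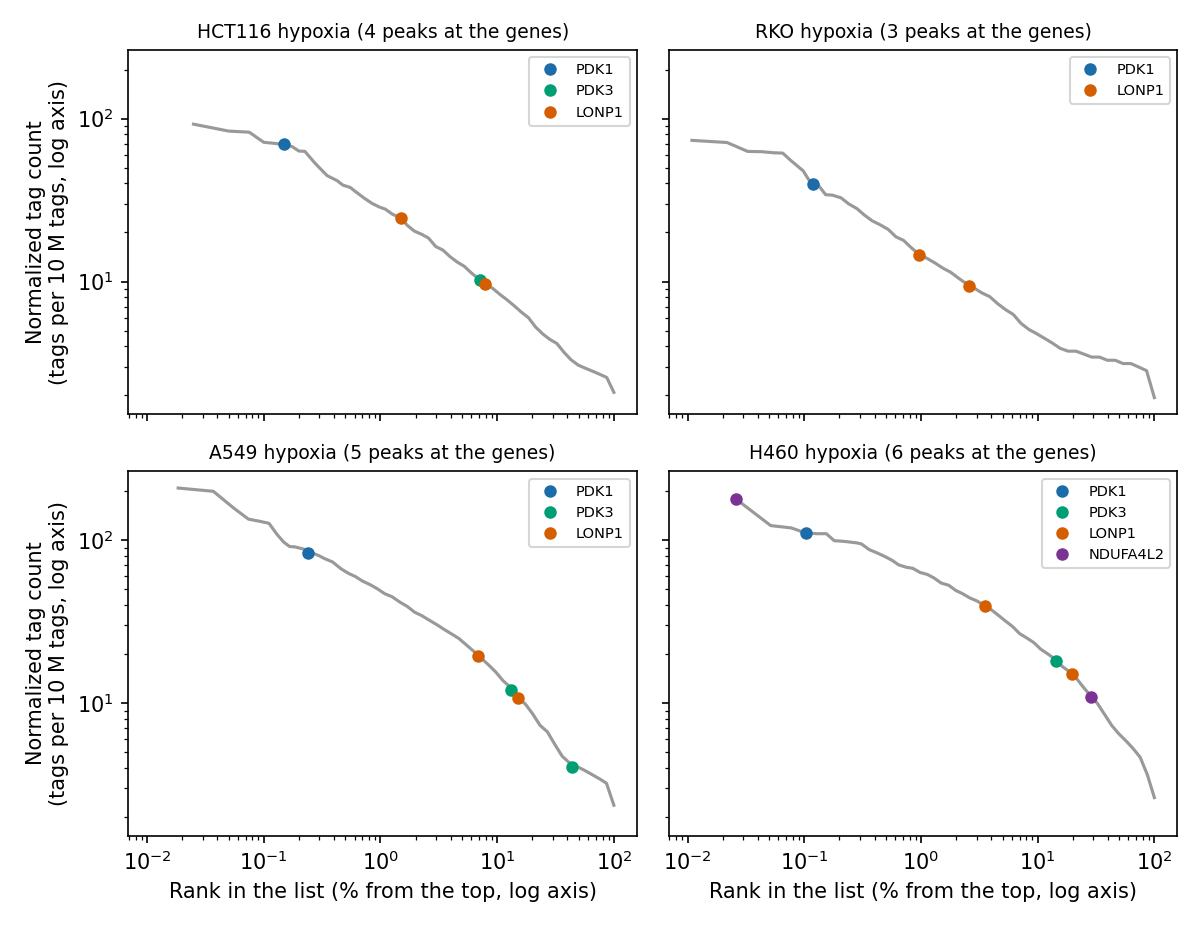
Normalized tag count against rank (percent from the top, both axes log) for all peaks of each hypoxia list (grey line), with the peaks at the genes as coloured points. PDK1 lies within the top 0.240% in every line, LONP1 start peaks between the top 0.970% and 6.79%, and PDK3 start peaks between the top 7.16% and 14.4%.

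The sign of the difference between colon and lung lines at PDK1 and LONP1 changed with the scaling. A test of 2 lines against 2 cannot decide whether they differ. The mean log2 normalized tag count at PDK1 was 5.72 in the colon lines and 6.59 in the lung lines, a difference (colon minus lung) of -0.87 that turned to 0.35 when each value was divided by the median over the 232 common regions (exact permutation test, two-sided, p = 0.333, the smallest value that 2 lines against 2 allow, and 0.667 after division). At LONP1 the difference was -0.55 and turned to 0.67 after the division (exact permutation test, p = 0.667 and 0.333). The medians of the common regions were themselves higher in the lung lines, at 23.0 in A549 and 27.0 in H460, against 11.8 in HCT116 and 9.80 in RKO.

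On that common scale the spread of PDK1 between lines was narrower. PDK1 stood at 5.88 times the median of the common regions for HCT116, 4.09 times for H460, 4.07 times for RKO and 3.63 times for A549. LONP1 stood at 2.09 times for HCT116, 1.49 times for RKO, 1.46 times for H460 and 0.848 times for A549. HCT116 was thus highest for both genes on this scale, where H460 was highest in tags per 10 M.

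HRE cores were present in the 200 bp at the centre of 17 of the 18 peaks. In HCT116 hypoxia 4 of 4 peaks at the genes held one, against 65.2% of all peaks of the list. H460 had 6 of 6 against 76.9%, A549 had 4 of 5 against 52.4%, and RKO had 3 of 3 against 30.5%. Peaks of the same region in several lines share their sequence, so the 18 peaks stand for 8 regions, of which 7 held a core.

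At PDK1 the 2 cores are both on the strand opposite to the gene, and are centred 15 bp and 6 bp upstream of the MANE start. The nearer core was 3 bp from the peak centre for A549, 5 bp for H460, 13 bp for HCT116 and 15 bp for RKO. LONP1 holds 5 core matches in its start window, and the CACGTG shown above lay between 2 bp and 16 bp from the peak centres. The core nearest to the PDK3 centre was 5 bp away in HCT116, 22 bp in H460 and 38 bp in A549.

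The NDUFA4L2 3′ UTR peak holds 5 cores, 3 of them in the first 30 base site shown above, which lie 26 bp to 44 bp from the peak centre. The closest core to that centre, at 15 bp, is in the second site. The NDUFA4L2 upstream peak has a CACGTG 3 bp from its centre. The weak and the strong NDUFA4L2 peaks, at 10.9 and 179.3, thus both carry several cores.

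**Figure D5:**
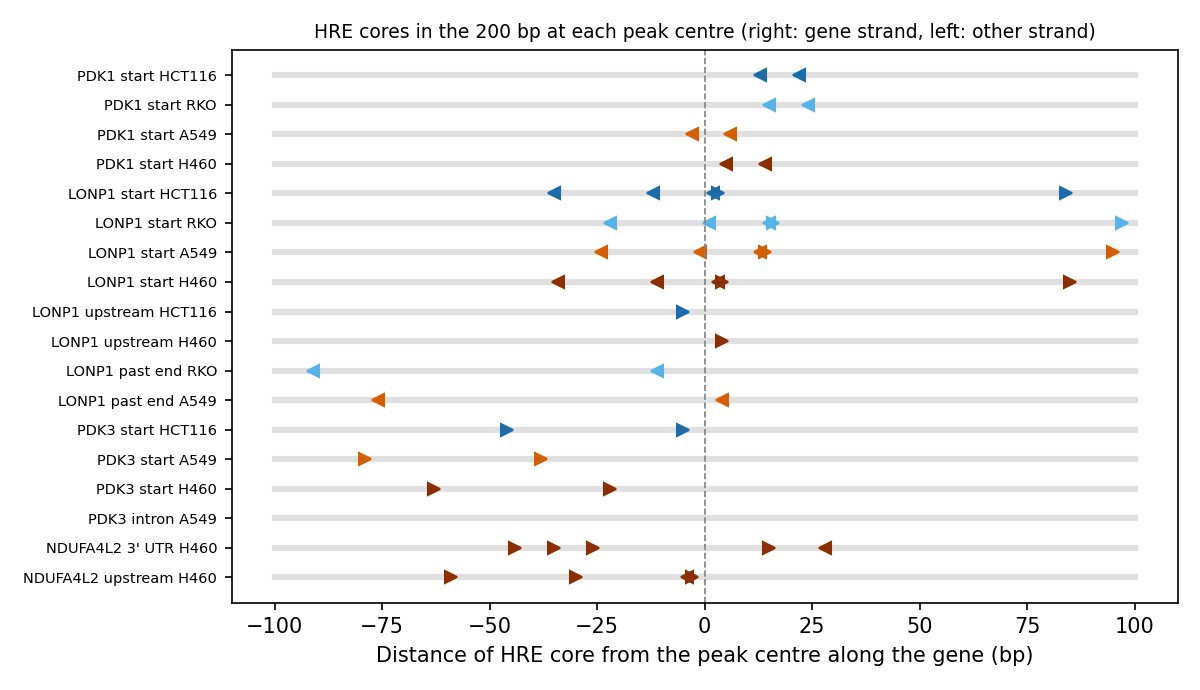
Position of each HRE core in bp from the peak centre along the gene, one line per peak, with arrowheads pointing right for the gene strand and left for the other strand, within the 200 bp searched (grey). PDK1 has 2 cores within 24 bp of each centre, LONP1 start peaks have 5 core matches, and the PDK3 intron peak has none.

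A core near the start was also found at genes without a peak. In the 300 bp from 250 bp before to 50 bp after the MANE start, 56.9% of 18921 protein-coding transcripts held a core. PDK2 had 3 core matches, COX4I2 had 2, and COX4I1, PDK4 and NDUFA4L2 had 0. LONP1 had 7, and PDK1 and PDK3 had 2 each. PDK1, with a peak called in every hypoxia list, and COX4I2, with none called in any list, thus held the same number. The cores were ACGTG at PDK1 and GCGTG at COX4I2. A match describes the letters only and is not a binding site by itself.

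Other genes of the same pathways were counted in the same way, and no test set them against the 8. Positions of their peaks are given from the start of the gene record, not from the MANE start used for the 8 genes. The 2 can differ, as the HCT116 peak of PDK1 lay 689 bp past the start of its gene record. Of 39 listed genes, 12 had a hypoxia peak in RKO (30.8%), 11 in HCT116 (28.2%), and 7 in each of A549 and H460 (17.9%), beside the background shares of hypoxia given above. In normoxia the counts were 3 for RKO, 0 for HCT116, 1 for A549 and 2 for H460. In at least 1 hypoxia list 24 of the 39 had a peak (61.5%), against 51.8% of all protein-coding genes, and in at least 2 lists 10 had one (25.6%), against 23.3%. None of the 39 had a peak in all 4, where the share of all protein-coding genes was 3.26%. The shares of the 39 were thus near the background.

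Of the 12 genes for the pyruvate dehydrogenase complex, its phosphatases, pyruvate carriers and a kinase relative, 8 had a peak in at least 1 hypoxic line and 5 in at least 2, beside the 51.8% and 23.3% of all protein-coding genes. BCKDK, the kinase of the branched-chain ketoacid dehydrogenase and a relative of the PDK family, was the strongest of the 5, with a normalized tag count of 13.7 in HCT116, 12.9 in RKO and 33.2 in H460, centred 2224 bp to 2236 bp past its start. PDHX, a structural subunit of the complex, had 3.59 in RKO and 5.86 in H460, 749 bp and 651 bp past its start. Its A549 peak, at 7.09, was a separate site 82308 bp past the start. PDHB, a subunit of the E1 enzyme, had 4.29 in HCT116 and 7.08 in H460 at its start. PDP1, a phosphatase that opposes the kinases, had its strongest hypoxia peaks at 8.95 in HCT116 and 3.89 in RKO, 59144 bp and 30976 bp past its start. RKO normoxia had a stronger PDP1 peak, at 5.1 and 16398 bp past the start, where HCT116 hypoxia had one of 4.17. PDPR, the regulatory partner of PDP1, had 5.64 in HCT116, 95 bp upstream of its start, and 2.99 in RKO, 41540 bp past it. All of these hypoxia values, those of BCKDK included, were below the PDK1 and LONP1 start peaks of the same lists. In RKO, BCKDK at 12.9 fell within the LONP1 interval (11.9 to 17.9). BCKDK was above the PDK3 start peak in HCT116 (10.2) and H460 (18.2), and was called in RKO, where PDK3 was not.

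Of 17 genes for nuclear cytochrome c oxidase subunits and NDUFA4 relatives, 8 had a peak in at least 1 hypoxic line and 4 in at least 2, against the same 51.8% and 23.3%. COX5A, a nuclear-encoded oxidase subunit, had peaks 24 bp to 48 bp upstream of its start at 13.2 in HCT116, 21.7 in A549 and 27.1 in H460. These were above the PDK3 start peaks of the same lists, at 10.2, 12.0 and 18.2. Against the LONP1 start peak, COX5A was lower in HCT116 (24.7) and H460 (39.4) and higher in A549 (19.5, interval 15.7 to 24.0). The other genes called in at least 2 lines were weak, and their peaks lay at different positions in different lines. COX7A2L had 2.99 in RKO (69779 bp past its start) and 3.87 in A549 (91295 bp). COX6C had 2.82 in HCT116 (10739 bp) and 3.89 in RKO (13857 bp). C15orf48 had 4.72 in A549 (18827 bp) and 6.07 in H460 (26238 bp). Of 10 mitochondrial proteases 8 had a peak in at least 1 hypoxic line (51.8% of all protein-coding genes did), and AFG3L2 alone had one in 2 (23.3% had one in at least 2), at 2.99 in RKO and 6.27 in H460.

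The genes whose strongest peaks were most like PDK1 over the 4 hypoxia lists were ENO1, a glycolytic enzyme, BNIP3L, a mitophagy receptor, and the gene record ENSG00000285043. Likeness was the Euclidean distance between the 4 log2 normalized tag counts, among 658 genes with a peak in all 4 lists, and the distances were 0.51, 0.58 and 0.73. ENO1 had 96.4 for H460, 92.4 for HCT116, 72.2 for A549 and 42.2 for RKO. Most like LONP1 were TMEM45A, at a distance of 0.32, and NCKIPSD and IP6K2, which share 1 peak, at 0.37. These distances rest on 4 merged lists and are a description.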

How the data were processed

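HIF1A ChIP-seq was analysed from 8 deposited peak lists, made from 16 ChIP libraries and 4 inputs. The authors aligned reads to GRCh37 (hg19) with Bowtie2 2.2.9, pooled both replicates of a group, and used HOMER 4.3 to call peaks over the input of the line. The deposited signal is the tag count in a peak per 10 M tags. The deposited fold ratios over input and over the local 10000 bp, and the scaled input tags (0.5 where there was none), are the authors' own. Other deposited columns, such as p-values, were not used. The fold over input had to reach 14 in H460, 13 in A549, 7 in HCT116 and 6 in RKO, so lists were not called at one threshold. The paper set these thresholds from tags in peaks common to the 4 lines, to control for differences in immunoprecipitation efficiency. The scaling of the tag counts does not correct for that efficiency. The descriptions of the RKO and A549 inputs name each other's line, while titles and file headers match, and titles were used.

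Peaks were assigned to GENCODE release 44 gene records on GRCh37 by their centre, with 10 kb on either side. All peak coordinates fell within the chromosomes of the reference used. Unscaled tags were recovered from the signal and the header totals, and gave exact Poisson 95% intervals and exact conditional intervals for ratios. The depth of a list limits its weakest peaks, which held 11 to 20 tags. Every member and each of its peaks is named, as is each pathway gene with hypoxia peaks in at least 2 lines. The 8 genes and the pathway lists were chosen with earlier results of these data known. Lines were compared with exact permutation tests. The planned binomial test of peaks called in both conditions of a line had no peak at the genes to test. Peaks were joined into regions where they shared at least 1 bp. HRE cores were searched on both strands. Steps were tested on simulated data. Alternatives were other windows, thresholds, scalings and leaving out each line. Python 3.11.15, pandas 2.3.3 and SciPy 1.17.1 were used.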

Additional observations from a re-analysis of the deposited data

How the results depend on the processing

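The counts of the 8 genes with a peak moved by over 1.5 times with the widest window alone. With no flank HCT116 hypoxia had 2 genes in place of 3, since the centre of its PDK3 peak lies 12 bp before the gene record. The share of all protein-coding genes in that list was then 11%. With 50 kb on either side the counts were 5 in HCT116 hypoxia, 5 in RKO hypoxia, 6 in A549 hypoxia, 2 in RKO normoxia and 2 in A549 normoxia. The share of all protein-coding genes rose too, to between 32.2% and 47.5% in the hypoxia lists. It was 12.9% in RKO normoxia and 5.52% in A549 normoxia. The difference between hypoxia and normoxia stayed above 0 genes under every alternative and ran from 2.67 to 3.33 genes when 1 line was left out. Normoxia held 0 genes except with 50 kb on either side, so only there could this difference have turned negative. Dividing by the median of the common regions turned the colon minus lung log2 difference to 0.35 at PDK1 and 0.67 at LONP1, and ranking as a percentile turned it to 0.037 and 3.94 percentage points. Leaving out 1 line gave -1.27 to -0.47 at PDK1 and -1.05 to -0.04 at LONP1; the cause was not tested. Of the pyruvate dehydrogenase list, 5 genes had a hypoxia peak with no flank, within 2500 bp of the start, at a fold over input of 14 and at a local fold of 6. Of the oxidase list the counts were 4, 1, 5 and 5 in that order, and of the proteases 3 with no flank. The share of all protein-coding genes with a peak in at least 1 hypoxia list was not computed for these alternatives, so the pathway counts have no background here. In all, 94 of 114 alternative values kept their direction or stayed within 1.5 times. Some of these could not have changed, since removing peaks or narrowing the window cannot raise a normoxia count of 0. The tally thus does not measure how firm the results are.

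Whether peaks that only touch at 1 coordinate are joined was settled after both results had been seen: an earlier run joined them. The rule kept asks for 1 shared bp, as planned, and in each list the width equals end minus start, so touching peaks share none. Joining them gives 233 common regions in place of 232 and 176 in place of 175 A549 hypoxia peaks that overlap a normoxia peak, and the scaled colon minus lung difference is then 0.35 at PDK1 (exact permutation p = 0.333 in place of 0.667) and 0.68 at LONP1. No paired analysis was possible because the replicates were merged before peak calling, which left no values to pair by replicate number, and single replicates could not be left out for the same reason. Conditions were compared within each line instead. Scaling by peak width could not be run for peaks called in both conditions, since none lay at the genes.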
